A study of Mus musculus with 24 samples.

Results

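Of the 56065 genes measured in mouse choroid, 10 keratins were followed here: Krt4, Krt5, Krt6a, Krt8, Krt12, Krt13, Krt14, Krt15, Krt17 and Krt18. They were taken by gene symbol, as keratins known from the surface epithelia of the eye and from simple epithelia, out of 56 genes whose symbol is Krt and a number. RNA of choroidal tissue was sequenced in 24 libraries, 4 of wild type and 4 of Ceacam1-/- mice without laser, and 9 of wild type and 7 of Ceacam1-/- mice that had laser spots set in both eyes, a treatment used to bring on choroidal neovascularization. The wild type mice were littermates of mice in which exons 1 and 2 of Ceacam1, a cell adhesion receptor, are deleted, in the whole animal. Both sexes were used, the background strain was C57BL/6J, and the mice were, where not stated otherwise, 6 to 8 weeks old, and the sources used here give neither the sex of a mouse nor the time between laser and dissection. In its flow cytometry the study took retinal pigment epithelium (RPE), choroid and sclera together as choroid. The study counts 4 mice of each genotype for choroid without laser, which matches the 8 libraries, and whether a laser library is 1 mouse is not given in the sources used here, so those tests measure the spread between libraries. The deposited values are normalized counts, which are estimated reads divided by factors for library size and average transcript length, and they summed to between 23704346 and 35094410 per library.

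Keratins are the intermediate filaments of epithelial cells. Each filament is built from pairs of 1 type I and 1 type II chain, and the pair in use tells the kind of epithelium. Krt5 (type II) and Krt14 (type I) are the pair of basal cells in stratified epithelia, and Krt15 is a type I keratin of basal cells, also in the limbus of the cornea. Krt12 is the type I keratin of the corneal epithelium. Krt4 and Krt13 pair in the upper layers of moist stratified epithelia such as the conjunctiva. Krt6a and Krt17 are known from wounded and fast-growing epithelium. Krt8 and Krt18 pair in simple epithelia, of which the RPE is one in the mouse.

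All 10 genes are protein coding and were found in the annotation (GRCm39). The type II genes lie on chromosome 15, Krt6a at 101598345 to 101602742, Krt5 at 101615505 to 101621346, Krt4 at 101826970 to 101833170 and Krt8 at 101905133 to 101912917, and Krt18, although type I, lies beside Krt8 at 101936615 to 101940462. The other type I genes lie on chromosome 11, Krt12 at 99306492 to 99313086, Krt13 at 100008153 to 100012392, Krt15 at 100022584 to 100026775, Krt14 at 100093988 to 100098490 and Krt17 at 100147040 to 100151974. Krt18 is on the plus strand and the other 9 genes are on the minus strand.

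Promoters are shown for members that varied together (Krt5 and Krt13), for Krt12, which departed from them, and for the pair Krt8 and Krt18. Each stretch is the 120 bases before a transcript start of the gene, 5′ to 3′ on the gene's strand, from RefSeq (GRCm38.p6), with TATAAA and with CCACCC or its reverse complement GGGTGG in capitals.
Krt12 (chr11:99422260-99422379, minus strand): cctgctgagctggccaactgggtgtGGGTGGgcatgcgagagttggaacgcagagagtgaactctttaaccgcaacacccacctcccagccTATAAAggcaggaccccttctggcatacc
Krt5 (chr15:101712906-101713025, minus strand): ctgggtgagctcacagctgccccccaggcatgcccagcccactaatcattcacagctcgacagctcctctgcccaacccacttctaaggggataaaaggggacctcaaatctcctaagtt
Krt13 (chr11:100121567-100121686, minus strand): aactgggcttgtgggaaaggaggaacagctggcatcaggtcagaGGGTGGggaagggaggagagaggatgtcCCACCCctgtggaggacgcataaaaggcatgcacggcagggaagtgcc
Krt8 (chr15:102004343-102004462, minus strand): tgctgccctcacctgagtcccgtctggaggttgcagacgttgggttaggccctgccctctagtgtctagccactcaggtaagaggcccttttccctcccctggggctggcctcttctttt
Krt18 (chr15:102028096-102028215, plus strand): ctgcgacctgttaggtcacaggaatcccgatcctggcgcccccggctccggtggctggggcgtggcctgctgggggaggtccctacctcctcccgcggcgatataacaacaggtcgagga
Of the 10 keratins, 6 had a promoter in that table, 7 windows in all, since Krt13 had 2. The window of Krt14 and the second one of Krt13 belong to starts 1480 and 989 bases inside the gene and are not shown, and RefSeq also has a start of Krt12 that lies 334 bases further upstream. Krt4, Krt6a, Krt15 and Krt17 had none. In the 250 bases before each start, and on either strand, TATAAA was found for Krt12 alone, with its first base at -29, and for 12.4% of the 32851 promoters of the table. CCACCC, the core of sites that Krüppel-like factors bind, was found for Krt8 (2 matches, both upstream of the stretch printed), Krt12 (2), Krt13 (4 in its first window) and the inner window of Krt14 (1), and for 28.1% of all promoters. TGANTCA, the core that AP-1 factors bind, was found for Krt13 and for 6.75% of all promoters, and matches of the 3 motifs did not overlap. A match describes these letters and is not a measured site.

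Ceacam1, on chromosome 7 at 25161128 to 25177257, was looked at first as a check of the genotype labels. It was 958, 5027, 1242 and 4596 normalized counts in the wild type libraries without laser (libraries 21, 22, 26 and 27) and 405, 505, 508 and 1171 in the Ceacam1-/- libraries without laser (23, 24, 25 and 28). With laser it ran from 774 over a median of 996 to 8367 in wild type and from 67.8 over a median of 335 to 905 in Ceacam1-/- libraries. Libraries of the 2 genotypes overlapped, with Ceacam1-/- libraries 28 and 15 above some wild type libraries. The values cover the whole gene, exons outside the deletion included. Both belong to the libraries of most surface keratin described below, as do libraries 19, 22 and 27, which held the highest wild type values, and the part of epithelial RNA in these values was not tested.

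The main feature of the keratins was a difference between libraries, not between groups. Together, Krt4, Krt5, Krt6a, Krt12, Krt13, Krt14, Krt15 and Krt17 (the 8 surface keratins) took 2.03% of all normalized counts in library 28 (Ceacam1-/- no laser), 1.91% in library 15 (Ceacam1-/- laser), 1.22% in library 22 and 0.348% in library 27 (both wild type no laser) and 0.892% in library 19 (wild type laser). At least 1 of these 5 libraries stood in each of the 4 groups. Libraries 23 (0.0677%), 12 (0.0637%), 7 (0.0573%) and 25 (0.0121%) lay between, and the other 15 libraries lay from 0.000168% in library 26 to 0.00479% in library 16. In bulk tissue, fewer cells of a type and less RNA per cell cannot be told apart.

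**Figure D1:**
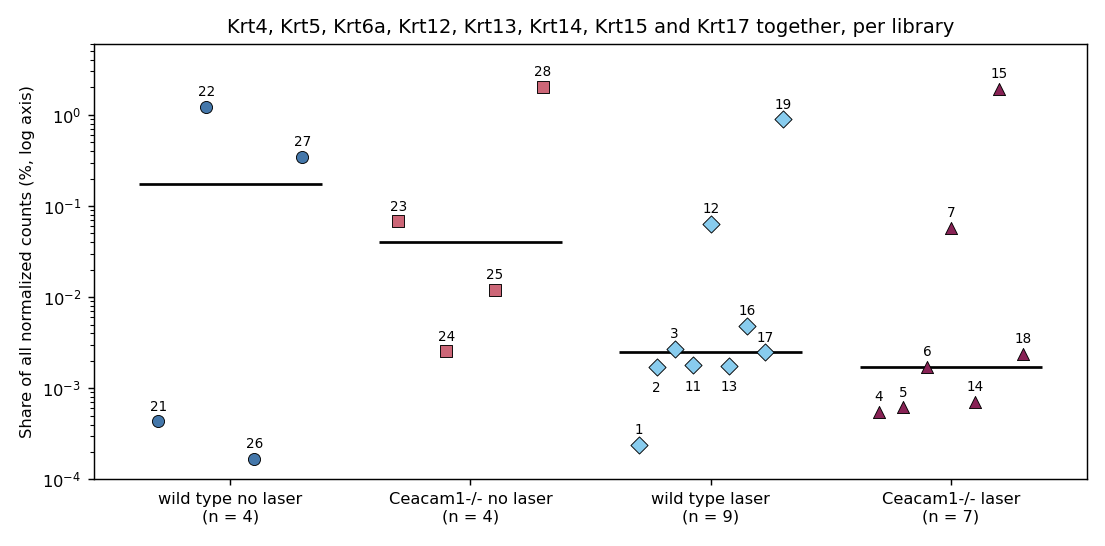
Summed normalized counts of the 8 surface keratins as a percent of all normalized counts in each library (y axis, log scale), by group (x axis), with library numbers beside the points and the group median as a line. Each group holds at least 1 library above 0.1%, and wild type libraries without laser run from 0.000168% to 1.22%.

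The data went against the name surface epithelium keratin for Krt8 and Krt18, which were above 0 in every library and not highest where the others were, and they are described as a pair of their own. Of the 8, Krt4, Krt5, Krt13 and Krt15 were above 0 in all 24 libraries, Krt6a in 23, Krt12 in 22, Krt14 in 21 and Krt17 in 17.

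**Figure D2:**
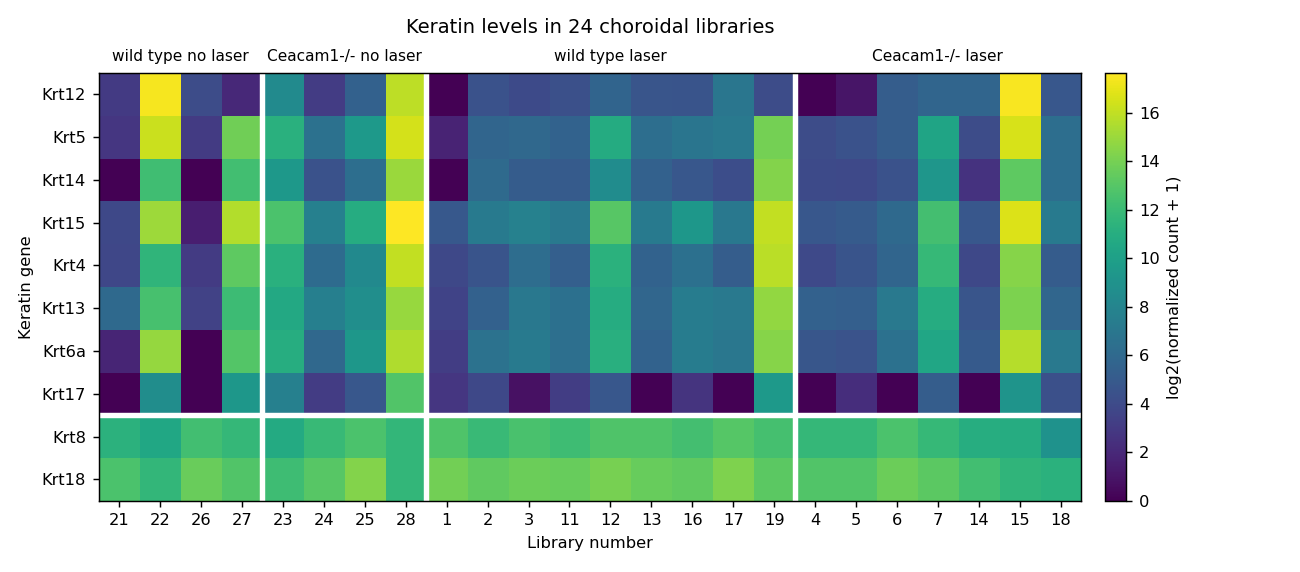
Levels of the 10 keratins (rows, as log2 of the normalized count plus 1, colour scale) in the 24 libraries (columns, by group). Columns 15, 19, 22, 27 and 28 are bright in nearly all of the 8 upper rows, Krt12 is dark in 19 and 27, and Krt8 and Krt18 in the lower 2 rows are of like brightness throughout.

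Krt12, the keratin of the corneal epithelium, was high in 3 libraries only. It reached 178593 normalized counts in library 15, 175232 in library 22 and 61194 in library 28. The next value was 347 in library 23. Without laser, the other wild type libraries held 6.82 (library 21), 15.8 (26) and 3.02 (27), whereas the other Ceacam1-/- libraries held 7.94 (24) and 44.2 (25). In the 9 wild type laser libraries Krt12 ran from 0 (library 1) over a median of 20.5 to 119 (library 17), and in the 7 Ceacam1-/- laser libraries from 0 (library 4) over a median of 36.6 to the value of library 15. The 3 high libraries came from 3 groups, and the wild type laser group held none. Libraries 19 and 27 stood out here: they were high in the 7 other surface keratins, yet held 16.4 and 3.02 of Krt12.

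Of the 6 genes of the corneal epithelium list, Slurp1 and Aldh3a1 were closest to Krt12 in their libraries. Slurp1, a secreted protein of the corneal surface, was 10656, 11928 and 3020 normalized counts in libraries 15, 22 and 28 and at most 31.3 in the other 21 libraries. Aldh3a1, the dehydrogenase that is abundant in the mouse cornea and the most abundant gene of the list, was 127953, 114127 and 59325 in the same libraries, against 5269.5 in library 27 and 4877 in library 19. Pax6, the transcription factor of eye development, was 6659 in library 15 but also 6040.2 and 5233 in libraries 14 and 18, where Krt12 was 51.8 and 27.1. The other members were less confined to these 3 libraries. Upk1b, a tetraspanin, was 8289.8, 11136 and 7444 there, but also 2227 and 1826 in libraries 19 and 27, against at most 751 in the rest. The transcription factors Klf4 and Klf5 were highest in libraries 15, 22 and 28 (at least 3840.3 and 3182), and they were 1725 and 2479 in library 19 and 1604 and 934 in library 24. All 6 genes were above 0 in all libraries and summed to 163072, 147999 and 82662 in libraries 15, 22 and 28, to 13330.5 and 11897 in libraries 19 and 27 and to between 2203 and 6473 in the rest. The list was written with results of these data known.

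**Figure D3:**
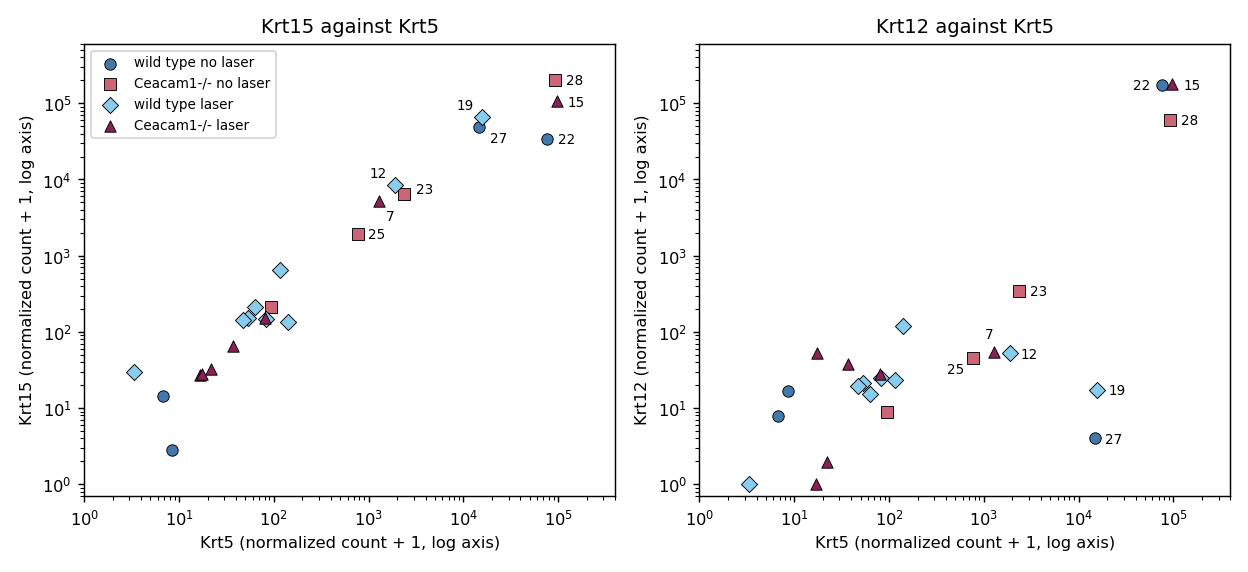
Krt15 (left) and Krt12 (right) against Krt5, each as the normalized count plus 1 on log axes, with 1 point per library, shaped and coloured by group. Krt15 climbs with Krt5 over all libraries, whereas Krt12 is high in libraries 15, 22 and 28 and is at 16.4 and 3.02 in libraries 19 and 27, whose Krt5 is 15790.1 and 14764.

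The basal keratins Krt5, Krt14 and Krt15 were high in all 5 libraries. Krt5 was 97240.1 normalized counts in library 15, 92649 in library 28 and 76079 in library 22, and lower in library 19 (15790.1) and library 27 (14764). Krt15 was 204359 in library 28, 106417 in 15, 65122 in 19, 48779.5 in 27 and 34198 in 22. The order of the libraries thus differed between the 2 genes, and the ratio of Krt15 to Krt5 was 0.45 in library 22 and 1.09 in library 15, against 2.21, 3.30 and 4.12 in libraries 28, 27 and 19. Krt14 was 32263 in library 28, 20773 in 19, 9721 in 15, 4976 in 27 and 4875 in 22, and it was listed at 0 in libraries 1, 21 and 26.

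Outside these libraries the basal keratins were low but not alike. In wild type libraries without laser, Krt5 was 5.81 in library 21 and also under 10 in library 26, and Krt15 was 13.3 and 1.86. In Ceacam1-/- libraries without laser, Krt5 was 2346 (library 23), 93.5 (24) and 763 (25) and Krt15 6503, 209 and 1938. The wild type laser libraries had a median of 81.6 for Krt5, with a lowest value of 2.36 in library 1, and a median of 152 for Krt15. Medians in the Ceacam1-/- laser libraries were 35.7 for Krt5 and 63.9 for Krt15. The ranges of the 4 groups overlapped for each of the 3 genes.

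Krt4 and Krt13, the pair of the conjunctiva and other moist epithelia, were highest in libraries 28 and 19. Krt4 was 67904 normalized counts in library 28, 58210.1 in 19, 22399 in 15, 9710.0 in 27 and 2958 in 22. Krt13 was 30293, 28506, 18637, 4269 and 5896 in the same libraries. Library 22, with the second highest Krt12, thus had the lowest Krt4 of the 5, not far from the 3557, 2517 and 2369 of libraries 7, 12 and 23. The median of Krt4 was 45.9 in wild type laser and 34.0 in Ceacam1-/- laser libraries, and that of Krt13 was 133 and 55.9.

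Krt6a and Krt17 followed the same libraries at different heights. Krt6a was 51378 normalized counts in library 15, 48182 in 28, 29846 in 22, 22344 in 19 and 7619.7 in 27. Krt17 was 7448 in library 28 and between 400.3 and 738 in libraries 15, 19, 22 and 27, and it was listed at 0 in 7 libraries (4, 6, 13, 14, 17, 21 and 26). Krt6a has a near-identical neighbour, Krt6b, and Krt14, Krt16 and Krt17 are close relatives, so that the split of reads among them is uncertain. Krt6b was 40835, 32246, 23546, 20610 and 6473 in libraries 15, 28, 19, 22 and 27.

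Per kilobase of transcript, the order of the members differed among the 5 libraries. Krt12 led in library 15 (96381 normalized counts per kb, then Krt15 with 62598 and Krt5 with 44000.1) and in library 22 (94566, then Krt5 with 34425 and Krt15 with 20116). Krt15 led in library 28 (120211 per kb, then Krt5 with 41922 and Krt12 with 33024), in library 19 (38307, then Krt4 with 27290.2 and Krt13 with 17234) and in library 27 (28694, then Krt5 with 6681). These are single libraries, so the order has no replicate error. In each of the 4 groups Krt18 had the highest or second highest median per kb, with 8331 in wild type laser libraries against 3049 for Krt8 and 89.2 for Krt15. The ranges of the 8 surface keratins overlapped between neighbours in that order in every group.

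Krt8 and Krt18 were abundant in every library. Krt8 was 2605, 1464, 4965 and 3436 normalized counts in wild type libraries 21, 22, 26 and 27 without laser and 1772, 3699, 6513 and 3355 in Ceacam1-/- libraries 23, 24, 25 and 28. In wild type laser libraries it ran from 3922 over a median of 5969 to 8149 (6068 ± 1335, mean ± SD, n = 9), and in Ceacam1-/- laser libraries from 509 (library 18) over 3442 to 6312 (3048 ± 1826, n = 7). The wild type laser group had the smallest ratio of highest to lowest value. The other groups overlapped it, with values up to 6513 (library 25), above its median.

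Krt18 behaved alike. It was 6336, 3315, 12396 and 7287 in wild type and 4660.1, 8659, 20963 and 3306 in Ceacam1-/- libraries without laser. With laser, wild type libraries ran from 9404 over 11972 to 19566 (13014 ± 3365, mean ± SD, n = 9) and Ceacam1-/- libraries from 2467 over 7295 to 12840.4 (6776 ± 3631, n = 7). Library 25 held the highest Krt18 and library 18 the lowest value of both genes. The ratio of Krt18 to Krt8 had a median of 2.30 over the 24 libraries, with the lowest value in library 28 (0.985) and the highest in library 18 (4.85).

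The 3 libraries of lowest RPE gene sums were among the 6 with least Krt8 and Krt18. The 10 RPE genes, all above 0 in all libraries and led by the retinol and thyroxine carrier Ttr and by the opsin Rgr, summed to 42937, 62127 and 73020 normalized counts in Ceacam1-/- laser libraries 18, 15 and 14, the 3 lowest sums of all. Krt8 and Krt18 together were 2975, 4953 and 7193 there. The other Ceacam1-/- laser libraries (4, 5, 6 and 7) held RPE sums of 204754, 263533, 336210 and 377420, and wild type laser libraries ran from 251427 over a median of 434746 to 541012. Without laser the sums were 355999, 199914, 703708 and 405210 in wild type libraries 21, 22, 26 and 27 and 269122, 498034, 972711 and 243787 in Ceacam1-/- libraries 23, 24, 25 and 28. Photoreceptor genes (Gnat1, Sag, Pde6b, Rcvrn and Nrl) summed to 460070, 460984 and 259971 in libraries 18, 14 and 15 and to 267655 and 246520 in libraries 23 and 21 without laser, against a median of 23199.8 in wild type laser libraries. The endothelial genes (Plvap, Emcn, Kdr, Vwf, Pecam1 and Cdh5) were above 0 in all libraries, with sums from 7472 (library 14) to 40338 (library 17).

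**Figure D4:**
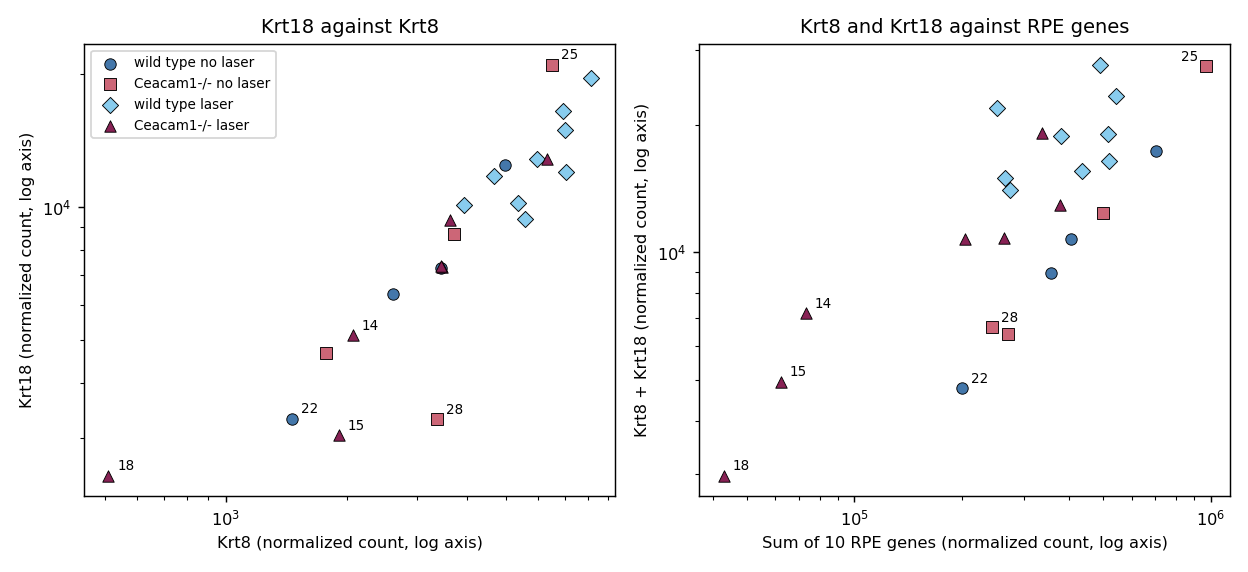
Krt18 against Krt8 (left), and the sum of Krt8 and Krt18 against the sum of 10 RPE genes (right), in normalized counts on log axes with 1 point per library, shaped and coloured by group. Library 18 is lowest in both panels, libraries 14, 15 and 18 have the lowest RPE sums, and library 28 has less Krt18 for its Krt8 than the other libraries.

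Within groups, the surface keratins were among the most variable genes of the tissue. The standard deviation of log2 values within groups was 4.85 for Krt12, which ranked 4th of 19950 genes tested, 4.69 for Krt15 (rank 5), 4.62 for Krt5 (7), 4.57 for Krt14 (8), 4.49 for Krt6a (10), 4.28 for Krt4 (13), 3.72 for Krt17 (41) and 3.58 for Krt13 (57). It was 0.78 for Krt8 and 0.75 for Krt18, and its median over all genes was 0.585. Of the 3 genes ahead of Krt12, Ddx3y (rank 1) and Eif2s3y (rank 3) are Y-linked and Aqp3 (rank 2) is a water channel of epithelia.

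Across the 24 libraries, which differ in group and share the epithelial content of each library, the 28 pairs of surface keratins had Pearson correlations of log2 values from 0.612 to 0.984, with a median of 0.946, given as a description. The lowest were those of Krt12 with Krt17 and with Krt4 (0.612 and 0.613). Krt8 and Krt18 correlated at 0.897 with each other, at -0.351 to -0.110 (Krt8) and at -0.549 to -0.339 (Krt18) with the 8.

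Each keratin had its own nearest genes by this measure. Nearest to Krt12 were Tkt (0.912), a transketolase that is very abundant in the cornea, Fam83a (0.903), Spink7 (0.886), Slurp1 (0.884) and A830036E02Rik (0.880). Krt5 was closest to Calml3 (0.987), a calmodulin-like protein of epithelia, followed by Cstdc5, Asprv1, Nccrp1 and S100a14. The genes nearest to Krt4 were Krt13 (0.984), Krt19 (0.981), Krt15, Serpinb3a and Gsto1, and those nearest to Krt13 were Krt4, Krt6b, Asprv1, Krt19 and Prss27. Krt6a was nearest to Krt15, Cstdc5, Krt6b, Krt14 and Gsto1. For Krt14 they were Cstdc5 (0.981), Krt6a, Krt6b, Krt15 and Krt5, and for Krt15 they were Krt6a (0.983), Krt6b, Gsto1, Krt5 and Krt4. Krt17 had Rbp2 (0.936), a retinol-binding protein, Fads2b, Gm16136, Rab25 and Urah. Another company stood beside the simple-epithelium pair: Slc25a30 (0.938), Renbp, Krt18, Pon3 and Itgav for Krt8, and Nt5dc2 (0.936), Lrmda, Ifitm10, Clec18a and Rab20 for Krt18. The mean of all 10 keratins was nearest to Krt5, Cstdc5, Krt15, Calml3 and Krt6a, of which Krt5, Krt15 and Krt6a are part of that mean.

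Of the 46 other keratin genes, 13 had a mean of at least 10 normalized counts and 6 were at 0 in all 24 libraries. Krt19, a keratin of simple and conjunctival epithelium, was 23597 in library 28, 12242 in 19, 11062 in 15, 5425 in 27 and 2321 in 22. Krt7 was 9141, 8703 and 7235 in libraries 19, 28 and 15 and 706 in library 22. Krt80, Krt16, Krt78, Krt75 and Krt90 were each highest in library 15 or 28. Krt10, the keratin of cornified skin, did not follow: it lay between 411 and 1044, with its highest value in library 14. Krt1, its partner, was at most 179.5, and Krt23, Krt222 and Krt24 were likewise not highest in the 5 libraries.

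Genes of epithelial junctions and anchoring were highest in the same 5 libraries as the surface keratins. The 17 genes of that list, led by Perp, Jup and Sfn, summed to 113194, 101038 and 90958 normalized counts in libraries 15, 22 and 28, to 43327 and 25238 in 19 and 27, and to between 2678 and 11215 in the rest. Dsg3, a desmosomal cadherin of stratified epithelia, was at 0 in 8 libraries and 6079, 4005, 2588, 2496 and 820 in libraries 15, 22, 19, 28 and 27. The 12 genes of epithelia in general (led by Elf3, Cdh1 and Ehf) summed to 35385 in library 15 and 8603 in library 27, against at most 3713 in the 19 others. The 11 genes of epithelial differentiation were led by Calml3, Lypd3 and S100a14 and reached 39144 in library 28, yet Ivl, a protein of the cornified envelope, was at most 115 and Sprr1b was at 0 in 21 libraries. Of the 10 goblet and gland genes (led by Aqp5, Muc4 and Muc1), Tff3 was at 0 in all libraries, Muc5ac, the mucin of goblet cells, was at most 227, and Aqp5, a water channel of cornea and glands, was 41260, 39341 and 19187 in libraries 22, 15 and 28 but 1659.8 and 831 in 19 and 27. Kera, the keratocan of the corneal stroma, was 1006, 1283 and 934 in the libraries of high Krt12 and 845 and 875 in libraries 19 and 27, values of similar size. In the other libraries Kera ran from 68.8 (library 14) to 2740 (library 6), so these values did not set the 5 libraries apart.

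Laser was compared with no laser in wild type mice to see whether the keratins move with the injury. None of the 10 was called by limma (adjusted p under 0.05), while 5.28% of 19950 genes were, most of them higher (4.23%) rather than lower (1.05%). All 10 passed the filter of a mean of at least 10, and none had groups without overlap, as 6.25% of genes had. The mean of Krt17 rested on a few high libraries, and its median was 5.98 in wild type laser and 4.03 in Ceacam1-/- laser libraries. Krt8 was higher with laser by a log2 fold change of 1.06 (standard error 0.44, limma adjusted p = 0.175) and Krt18 by 0.94 (0.43, adjusted p = 0.218), neither past the threshold. These 2 had an unadjusted p under 0.05 with limma, as had 20% of all genes. In the two-sided exact permutation test of 9 against 4 libraries, their unadjusted p was 0.0042 and 0.00839, among 40 such tests made over all keratins and comparisons. When limma was fitted to the 13 wild type libraries alone, both were called (adjusted p = 0.0175 and 0.0424), as were 11.6% of 19529 genes in that fit. In the main fit the 10 RPE genes had a median of 0.02, with 6 higher. Higher were also 6 of 6 endothelial (median 0.53), 5 of 5 corneal stroma (0.88) and 9 of 10 lens genes (1.61). All 6 muscle (-0.82) and all 5 photoreceptor genes (-1.44) were lower. An unadjusted limma p under 0.05 was found for 2 endothelial, 2 stroma and 1 muscle gene, and of all these only Lum was called. The part of these tissues in the keratins' values was not tested.

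The surface keratins gave fold changes from -2.33 (Krt12) to 0.27 (Krt6a) in this comparison, with standard errors from 2.00 to 2.71. The 95% interval for Krt5 ran from -7.17 to 3.48, so a change of several-fold in either direction was not detectable. Their sign depended on which libraries were included. Without the 5 libraries of most surface keratin, which leaves only libraries 21 and 26 as the wild type group without laser, all 10 keratins were higher with laser, with a median of 2.46, against a median of -0.46 with 3 of 10 higher in all libraries, and again none was called. That set was chosen after seeing the data. The median of all genes tested was -0.10.

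In Ceacam1-/- mice, laser against no laser gave lower values for all 10 keratins and no call, where 3.72% of the 19950 genes were called, 2.07% higher and 1.65% lower, and 2.13% had groups without overlap. An unadjusted p under 0.05 was found for no keratin and for 20% of genes. The median over the 10 was -2.78, and it was -1.19 without library 28 and -1.08 with array weights, with 1 keratin higher in each case, but -4.28 without library 15 and -4.23 without library 24. Krt17 (-4.14, standard error 2.18) and Krt15 (-4.10, 2.73) were farthest from 0 and did not pass limma's test (adjusted p = 0.294 and 0.415). Of the 4 Ceacam1-/- libraries without laser, 2 (23 and 28) held at least 0.05% of surface keratin, a share set after the values were seen, and of the 7 with laser 2 (7 and 15) did. Krt8 (-0.49, standard error 0.46) and Krt18 (-0.30, 0.45) were near 0.

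Markers of other tissues were looked at in the same comparison, and no RPE, muscle or photoreceptor gene was called. All 10 RPE genes were lower with laser in Ceacam1-/- mice, with a median log2 fold change of -1.56 against 0.02 for all genes, 7 with an unadjusted limma p under 0.05 and none called. The 6 muscle genes were all lower as well, with a median of -1.94, 5 with an unadjusted p under 0.05 and none called. The 5 photoreceptor genes were all higher, with a median of 2.26, none with an unadjusted p under 0.05. Of the 10 lens genes 7 were higher (median 1.59) and none was called. An unadjusted p under 0.05 was found for 2 of them, Lgsn (higher) and Lim2 (lower). All 5 corneal stroma genes were higher (0.87), 1 of them, Lum, called. Of the 6 endothelial genes 1 was higher (-0.21). The part of these tissues in the keratins' values was not tested.

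Genotype was compared without laser, to see whether the keratins differ in the uninjured choroid. No keratin was called, and of all 20057 genes tested with limma 0% were called and 1.53% had an unadjusted p under 0.05. Groups without overlap were found for 1.36% of genes and for no keratin. All 10 were higher in Ceacam1-/- libraries, with a median log2 fold change of 2.27, from 0.14 for Krt18 to 3.24 (standard error 3.47) for Krt15, and limma's adjusted p was 0.999 for each. This direction turned with array weights, which gave a median of -2.27 with 3 of 10 higher, and the median was 0.56 without library 28, 0.61 without library 26 and 0.86 without library 21. It was larger without library 22 (4.21), 27 (3.93) or 24 (3.71) and without the 5 libraries of most surface keratin (5.20). The 2 lowest libraries, 21 and 26, were both wild type and the highest, 28, was Ceacam1-/-, while libraries 22 and 27 were wild type as well. The difference for Krt8 was 0.28, with a 95% interval from -0.76 to 1.33. Of the 17 junction and anchoring genes only 5 were higher (median -0.24). Higher were 8 of 12 genes of epithelia in general (0.24) and 4 of 6 of the corneal epithelium (0.13). So were 8 of 10 genes of epithelial differentiation (0.89) and 7 of 7 goblet and gland genes (1.03). All 5 photoreceptor genes were lower (-1.67). No gene of these lists had an unadjusted limma p under 0.05.

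With laser, Krt8 and Krt18 were lower in Ceacam1-/- than in wild type libraries without passing the adjusted threshold. No keratin was called, where 0.0202% of 19757 genes were, 0.0101% higher and 0.0101% lower, and none had groups without overlap, where 0.147% had. The log2 fold change was -1.27 for Krt8 (standard error 0.37, limma adjusted p = 0.122) and -1.10 for Krt18 (0.29, adjusted p = 0.112). The unadjusted limma p was 0.00305 and 0.00152, and 22.7% of all genes had one under 0.05. Exact permutation of 7 against 9 libraries gave an unadjusted p of 0.0014 and 0.00122. Leaving out 1 library at a time, the difference stayed between -1.49 and -0.89 for Krt8 and between -1.29 and -0.89 for Krt18. Over all alternatives run, it came as near to 0 as -0.68 for Krt8 and -0.59 for Krt18. The limma adjusted p then ranged from 0.0664 to 0.429 for Krt8 and from 0.0619 to 0.423 for Krt18.

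Genes of several other tissues were lower as well. All 10 RPE genes were lower in Ceacam1-/- laser libraries, with a median of -1.44 against 0.01 for all genes, 7 with an unadjusted p under 0.05 and none called: Rpe65, the isomerohydrolase of the visual cycle, was at -1.75 (standard error 0.50, limma adjusted p = 0.119). The 6 muscle genes were all lower too, with a median of -1.35, all 6 with an unadjusted p under 0.05 and none called, and the 6 endothelial genes were lower with a median of -0.52, none of them with an unadjusted p under 0.05. The 5 photoreceptor genes were all higher, with a median of 2.01, 3 with an unadjusted p under 0.05 and none called. Muscle sums ran from 9668 (library 14) over a median of 81743 to 168170 in Ceacam1-/- laser libraries and from 57911 over 220111 to 287374 in wild type laser libraries. The part of RPE or muscle content, and of libraries 14, 15 and 18, in the difference of Krt8 and Krt18 was not tested. The 8 surface keratins lay between -0.72 (Krt15) and 1.42 (Krt12) in this comparison, with standard errors from 1.46 to 1.84.

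**Figure D5:**
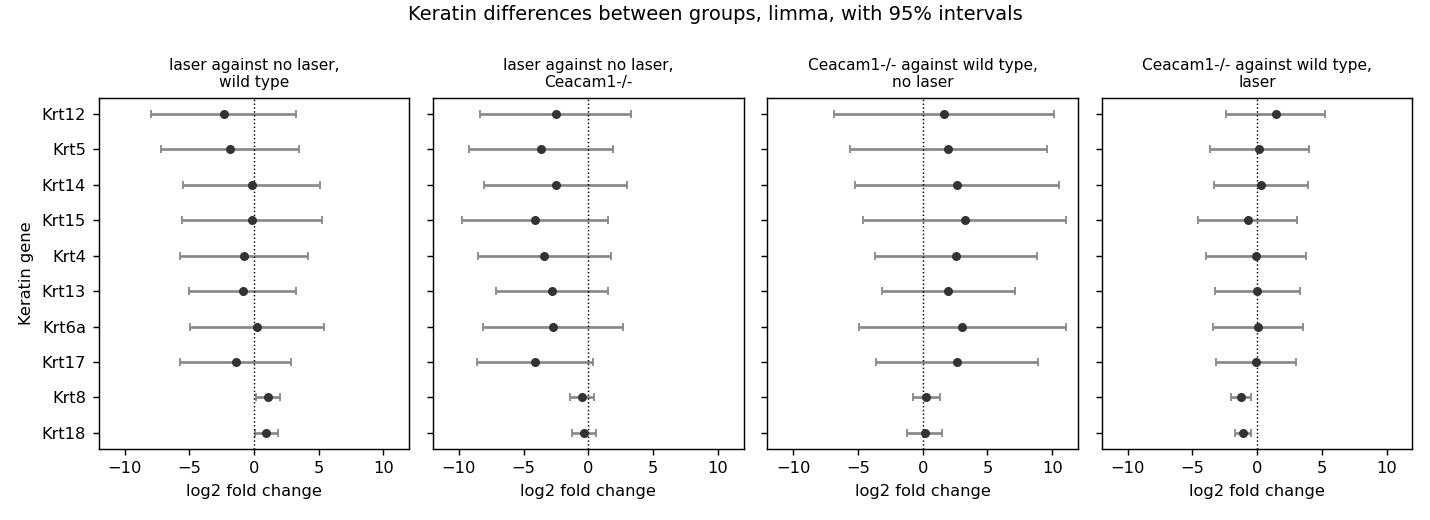
Log2 fold changes of the 10 keratins (points) with 95% intervals (bars) in 4 comparisons by limma, on the scale of log2 of the normalized count plus 1 (x axis). Intervals of the 8 surface keratins span several units and include 0 in all 4 panels, whereas those of Krt8 and Krt18 are narrow and leave out 0 for laser in wild type and for genotype with laser, before adjustment.

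Whether laser acted differently in the 2 genotypes was tested by the interaction term. For no keratin, and for 0% of 19950 genes, was it called by limma, while 6.22% of genes had an unadjusted p under 0.05. It was -1.55 for Krt8 (standard error 0.64, limma adjusted p = 0.64), the only keratin among these 6.22%, and -1.24 for Krt18 (0.62, adjusted p = 0.64). For the surface keratins it ran from -3.96 (Krt15) to -0.21 (Krt12), with standard errors of at least 2.89. The median over the 10 was -2.15 with none above 0, but 2.16 with 7 of 10 above 0 with array weights, -0.80 without library 28, -0.79 without library 26 and -1.18 without library 21. It was farther from 0 without library 22 (-3.98), 27 (-3.88), 24 (-3.55) or 15 (-3.45) and without the 5 libraries (-5.46). In the same test all 10 RPE genes lay below 0, with a median of -1.49 and 3 with an unadjusted p under 0.05, as did the 6 muscle genes (median -1.14) and the 6 endothelial genes (-0.88), and the 5 photoreceptor genes lay above 0 (3.68), none of these 17 with an unadjusted p under 0.05. The comparisons share libraries, so their values are not independent of each other.

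Among the other genes of the lists, tested in the same models, 2 passed, both for laser, where 5.28% of all genes were called in wild type and 3.72% in Ceacam1-/- mice. These few calls did not set the lists apart from all genes. In wild type mice Krtdap, a protein of differentiating keratinocytes, was higher with laser by a log2 fold change of 1.57 (limma adjusted p = 0.043), the only call among 10 tested genes of epithelial differentiation, and Lum, the lumican of cornea and sclera, by 1.90 (adjusted p = 0.0309), the only call among 5 genes of the corneal stroma. Lum also rose in Ceacam1-/- mice, by 2.11 (limma adjusted p = 0.031). Krtdap lay at 32.5 in library 28 and at 66.9 in library 4, and was thus not highest where the surface keratins were. No gene of the other lists was called in any comparison: junction and anchoring (17 tested), epithelia in general (12), corneal epithelium (6), goblet and gland (7), RPE (10), lens (10, or 9 for genotype with laser), endothelium (6), photoreceptor (5) and muscle (6). For junction and anchoring genes the median log2 fold change was -1.15 for laser in wild type and -1.11 for laser in Ceacam1-/- libraries. For epithelia in general it was -1.07 and -1.36. For genotype these medians were -0.24 and 0.24 without laser and -0.25 and -0.02 with laser, against 2.27 and -0.03 for the keratins. In the interaction they were 0.03 and -0.17, against -2.15 for the keratins.

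Partners and neighbours were also compared over the libraries of 1 group, in 7 pairs and both laser groups, 14 relations in all. Of these, 11 had a Benjamini-Hochberg adjusted permutation p of Pearson's r under 0.05, and 6 had one of Spearman's rank coefficient. Krt4 and Krt13 correlated at 0.981 in wild type (n = 9, exact permutation p = 0.000107, adjusted 0.00139, Spearman's rank coefficient 0.883) and at 0.992 in Ceacam1-/- libraries (n = 7, exact p = 0.000595, rank coefficient 0.964). Krt8 and Krt18 correlated at 0.774 (n = 9, exact permutation p = 0.0146, rank coefficient 0.767) and 0.917 (n = 7, exact p = 0.000397, rank coefficient 0.964). Krt5 and Krt15 correlated at 0.964 (rank coefficient 0.7) in wild type and 0.992 (rank coefficient 1) in Ceacam1-/- libraries. The values were 0.953 (rank coefficient 0.533) and 0.984 (rank coefficient 0.893) for Krt5 and Krt14, 0.775 (rank coefficient 0.46) and 0.911 (rank coefficient 0.741) for Krt6a and Krt17, and 0.528 (rank coefficient 0.533) and 0.903 (rank coefficient 0.75) for Krt5 and Krt12, in the same order. By rank, none of the 3 wild type relations of Krt5 with Krt14, Krt5 with Krt15 and Krt6a with Krt17 had an adjusted p under 0.05 (0.188, 0.0865 and 0.231, permutation tests).

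Without the 2 libraries farthest from the median of the first gene, none of the 14 had an adjusted p under 0.05. That leaves 7 wild type and 5 Ceacam1-/- libraries, and with 5 the smallest p that permutations can give is 0.00833, here 0.0583 after adjustment. For Krt5 the libraries left out were 1 and 19 in wild type and 7 and 15 in Ceacam1-/- laser libraries, and for Krt8 they were 2 and 17 and 6 and 18. Pearson's r was then 0.883 (rank coefficient 0.75) in wild type and 0.906 (rank coefficient 0.9) in Ceacam1-/- libraries for Krt4 and Krt13, and 0.642 (rank coefficient 0.607) and 0.926 (rank coefficient 0.9) for Krt8 and Krt18. For Krt5 and Krt15 it was 0.926 (rank coefficient 0.357) and 0.998 (rank coefficient 1), and for Krt5 and Krt14 0.767 (rank coefficient 0) and 0.923 (rank coefficient 0.7). It was -0.141 (rank coefficient -0.162) and 0.435 (rank coefficient 0.224) for Krt6a and Krt17, and 0.539 (rank coefficient 0.821) and 0.461 (rank coefficient 0.3) for Krt5 and Krt12. The coefficients of Krt6a with Krt17 in both groups and of Krt5 with Krt12 in Ceacam1-/- mice thus depended on the libraries left out. So did the rank coefficients of Krt5 with Krt14 and Krt15 in wild type mice, which had not passed with all libraries either. Leaving out the libraries most extreme in the first gene narrows its range, which can by itself lower a coefficient. Krt14 and Krt18, both of type I and so not partners, gave -0.43 in wild type and -0.39 in Ceacam1-/- libraries with all libraries of the group, neither called. Without the 2 libraries this pair gave 0.123 and -0.484.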

How the data were processed

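Choroid RNA of 24 libraries was sequenced after PCR amplification of cDNA from about 10 ng of RNA (SMART-Seq). Per the labels and the study's methods, the authors quantified reads with salmon 1.10.3 on GRCm39 and divided them by DESeq2 1.44.0 factors for library size and average transcript length. The deposited values are therefore a normalized signal per gene, not counts, and the depth before scaling is unknown: between 31.9% and 72.3% of low values lay near whole multiples, so reads were not recovered. The study's methods name 1 outlier as removed, and sex as a covariate that the labels do not give.

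Values were tested with limma 3.58.1 (R 4.3.3, empirical Bayes with trend) on log2(value + 1), for genes with a mean of at least 10, with Benjamini-Hochberg adjustment over all genes and a threshold of 0.05. The 24 libraries entered the fit for laser and interaction, and the libraries compared for genotype. A fold change on this scale understates that of low genes. Single keratins were also compared by exact permutation tests on log2 values. The step was also run on simulated data, whose outcome is not reported here. Symbols of 99.1% of 56065 identifiers were found in the annotation, and promoters came from RefSeq. Alternatives were the pseudocount, filter, scaling, array weights, a Y-linked covariate, robust variances, the libraries in the fit and each library left out. Named genes were the 10 keratins, the 3 most abundant of each list, other keratins with a mean of at least 10 and the 5 genes of highest correlation with each keratin. Of the lists of photoreceptor genes and of epithelia in general, 1 gene each is not reported here and was left out of sums and counts. Other list members were named after their values were seen. Members and lists were chosen with earlier results of these data known. The labels name no batch. Python 3.11.15 drew the figures.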

Additional observations from a re-analysis of the deposited data

Results flagged for a closer look

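In groups of 4 to 10 libraries, the gap of the highest or lowest library to its neighbour was set against the range of the group (Dixon's test at 95%). Of 40 groups (10 keratins in 4 groups), 25 held such a library, and each was the highest of its group. The test was run on normalized counts, not on log2 values. Its nominal rate of 1 in 20 holds for normally distributed values. Values skewed to the high side are flagged more often, at their highest library, so the count of flags cannot be set against chance. The flags are not independent, since the same libraries carry them: library 15 has 8, library 28 has 8, library 19 has 7, and libraries 17 and 22 have 1 each. In library 15 (Ceacam1-/- laser) the values standing apart were, in normalized counts, 22399 for Krt4, 97240.1 for Krt5, 51378 for Krt6a, 178593 for Krt12, 18637 for Krt13, 9721 for Krt14, 106417 for Krt15 and 562 for Krt17. Those of library 28 (Ceacam1-/- no laser) were 67904 for Krt4, 92649 for Krt5, 48182 for Krt6a, 61194 for Krt12, 30293 for Krt13, 32263 for Krt14, 204359 for Krt15 and 7448 for Krt17. Library 19 (wild type laser) held 58210.1 for Krt4, 15790.1 for Krt5, 22344 for Krt6a, 28506 for Krt13, 20773 for Krt14, 65122 for Krt15 and 738 for Krt17, and not Krt12. In library 22 (wild type no laser) only Krt12, at 175232, stood apart. In library 17 (wild type laser) Krt12 was 119, a low value beside those above. Krt8 and Krt18 had no library apart in any group.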

How the results depend on the processing

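No keratin was called in any of the 5 comparisons under any alternative run, except for laser in wild type mice, where 3 keratins were called with array weights, as were 32.6% of all genes (Krt8 at a log2 fold change of 0.91, Krt18 at 0.86 and Krt17 at -4.52, limma adjusted p = 0.00892, 0.0161 and 0.0376) and 2 (Krt8 and Krt18) with the fit limited to the libraries compared. The adjusted p of Krt8 in that comparison ranged from 0.00892 to 0.632 over the alternatives and that of Krt18 from 0.0161 to 0.648. Of the 14 relations between keratin pairs, 11 had an adjusted p under 0.05 and 0 without the 2 libraries farthest from the median, where r turned to -0.141 for Krt6a and Krt17 and to 0.123 for Krt14 and Krt18 in wild type libraries and r fell to 0.435 and 0.461 for Krt6a and Krt17 and for Krt5 and Krt12 in Ceacam1-/- libraries, of which 5 were left. Fold changes of the keratins changed sign in 122 recomputed values, and 96 of the changes moved the value by less than 1 standard error. The cause was not tested.

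The count of all genes called moved more. For laser in wild type mice 1053 genes were called (844 higher), against 6505 with array weights (3238 higher), 2274 with the fit limited to the libraries compared (1588 higher), 479 without library 21, 723 without library 22, 554 without library 27 and 491 without the 5 libraries of most surface keratin (478 higher). For laser in Ceacam1-/- mice 742 were called (413 higher), against 437 with no filter, 3551 with array weights, 38 with the fit limited to the libraries compared (36 higher), 466 without library 5, 2488 without library 23, 255 without library 24, 148 without library 25 and 587 without the 5 libraries (456 higher). Genotype with laser gave 4, against 297 with array weights and 2 to 61 under the other alternatives, the highest without library 19. Genotype without laser gave 0 or 1 and the interaction 0.

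Signs that changed are given as log2 fold changes. Without the 5 libraries of most surface keratin (chosen after seeing the data), laser in wild type gave 2.65 for Krt4, 3.36 for Krt5, 0.79 for Krt12, 2.00 for Krt13, 4.92 for Krt14, 5.29 for Krt15 and 2.26 for Krt17, genotype without laser -0.041 for Krt8 and genotype with laser -0.53 for Krt5, -0.41 for Krt6a, -0.55 for Krt12 and -0.18 for Krt13. With array weights, laser gave -3.18 for Krt6a in wild type and 0.029 for Krt18 in Ceacam1-/- mice, genotype without laser -2.59 for Krt4, -3.09 for Krt5, -2.48 for Krt6a, -1.54 for Krt13, -3.09 for Krt14, -2.87 for Krt15 and -2.07 for Krt17, genotype with laser 0.38 for Krt4, -0.19 for Krt6a and -0.16 for Krt12 and the interaction 3.02 for Krt4, 3.17 for Krt5, 2.33 for Krt6a, 1.85 for Krt13, 3.37 for Krt14, 2.22 for Krt15 and 2.10 for Krt17. With the Y-linked covariate, laser in wild type gave 0.47 for Krt14 and 0.035 for Krt15 and genotype with laser 0.71 for Krt4 and 0.073 for Krt17. Quantile normalization gave -0.0090 for Krt5, -0.047 for Krt6a and -0.14 for Krt13 for genotype with laser. A pseudocount of 10 gave -0.82 for Krt6a (laser in wild type), 0.15 for Krt17 (genotype with laser) and 0.55 for Krt12 (interaction), and one of 0.5 gave 0.21 for Krt14 (laser in wild type).

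Leaving out each library in turn, the ranges that crossed 0 were, for laser in wild type, -3.87 to 1.27 for Krt12, -3.92 to 0.57 for Krt5, -2.21 to 1.88 for Krt14, -2.63 to 2.05 for Krt15, -2.35 to 1.03 for Krt4, -2.56 to 0.46 for Krt13, -2.19 to 2.76 for Krt6a and -2.92 to 0.19 for Krt17, for laser in Ceacam1-/- mice -4.49 to 0.011 for Krt12 and -0.68 to 0.21 for Krt18, for genotype without laser -0.92 to 5.23 for Krt12, -0.092 to 4.39 for Krt5, -0.034 to 0.61 for Krt8 and -0.37 to 0.52 for Krt18, for genotype with laser -0.53 to 2.38 for Krt12, -1.38 to 1.02 for Krt5, -0.88 to 1.34 for Krt14, -2.15 to 0.17 for Krt15, -1.33 to 0.99 for Krt4, -1.07 to 0.91 for Krt13, -1.26 to 0.91 for Krt6a and -1.09 to 0.74 for Krt17 and for the interaction -3.81 to 2.34 for Krt12 and -4.23 to 0.26 for Krt5. In wild type mice the sign turned for 6 keratins without library 22 and for 5 without library 27, and for genotype with laser it turned for 5 without library 15. Krt18 for laser in wild type mice was lowest (0.61) without library 22 and highest (1.24) without library 26. No filter, a mean of at least 50, upper-quartile scaling, robust variances and the other set of libraries in the fit turned no sign. No paired analysis was possible because a library number belongs to 1 group only. Reads were not recovered from the values, so a floor or interval from counts could not be given, and values of a few normalized counts are near the limit of detection.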
